A study of Mus musculus with 8 samples.

Results

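The 9 genes described here are oncogenes and tumor suppressors that drive lung carcinoma: the Ras GTPases Hras1 and Nras, the kinase Braf, the receptor tyrosine kinases Egfr and Met, the transcription factor Myc, and the tumor suppressors Trp53, Stk11 and Rb1. They were chosen by name, with no threshold on a measured value, and all 9 were found among 22359 protein-coding genes of the mouse. Histone marks were mapped in tumors of 2 lines of Lewis lung carcinoma, a mouse lung cancer cell line. LLC-NR is sensitive to VEGF-Trap, a decoy receptor that binds the angiogenic factor VEGF. LLC-R was derived from the same cell line by repeated selection for growth in mice under continuous VEGF-Trap. Both were grown under the skin of young female C57BL/6J mice, so the samples of both lines are whole tumor isografts that also hold host cells. The labels name no engineered allele in either line. Chromatin was cut with micrococcal nuclease and immunoprecipitated with antibodies against H3K4me3, H3K9ac, H3K27me3 or H3K36me3. Each mark was measured in 1 library of each line, which gives 8 libraries, and the labels do not say how many tumors went into each. No difference between LLC-NR and LLC-R can be tested against the spread between tumors, so values are compared only with those of all genes in the same library, and no p-value is given.

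H3K4me3 and H3K9ac mark the promoters of active or poised genes, and H3K36me3 is laid down along the bodies of transcribed genes. H3K27me3 is the mark of Polycomb repression, and promoters that carry it together with H3K4me3 are called bivalent. Growth factor receptors such as Egfr and Met signal through the Ras proteins to Braf and the MAP kinases, and Myc is one of the targets of this cascade. Trp53 encodes p53, which halts the cell cycle or starts apoptosis after damage. Rb1 restrains the E2F factors at the entry to S phase, and Stk11 encodes LKB1, the kinase that switches on AMPK when energy is low.

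The genes are placed on NCBIM37, the mouse assembly called mm9. Hras1 is at chr7:148375004-148379904 on the minus strand, Nras at chr3:102862152-102871837 on the plus strand and Braf at chr6:39553236-39675462 on the minus strand. Egfr is at chr11:16652206-16818161, Met at chr6:17413800-17523980 and Myc at chr15:61816946-61821929, all on the plus strand. Trp53 is at chr11:69393861-69405375 and Stk11 at chr10:79578548-79593427, both on the plus strand, and Rb1 at chr14:73583480-73725629 on the minus strand. They differ widely in length, from 4.901 kb for Hras1 and 4.984 kb for Myc to 142.2 kb for Rb1 and 166.0 kb for Egfr, and the short genes give few peaks to count.

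The upstream sequences of 5 members are shown because later results turn on them. Egfr had the largest difference in H3K4me3 between the lines, Myc lay in a long block dense in peaks, and Rb1 held the most H3K4me3 peaks. Trp53 and Hras1 share their upstream region with a gene on the opposite strand. Each stretch is from NCBIM37 and is written from 5′ to 3′ on the strand of the gene. It ends at the base before the transcription start site (TSS) and is at most 250 bases long, cut short where an annotated exon of another gene begins. Capitals mark CpG dinucleotides.
Egfr, chr11:16651956-16652205, plus strand: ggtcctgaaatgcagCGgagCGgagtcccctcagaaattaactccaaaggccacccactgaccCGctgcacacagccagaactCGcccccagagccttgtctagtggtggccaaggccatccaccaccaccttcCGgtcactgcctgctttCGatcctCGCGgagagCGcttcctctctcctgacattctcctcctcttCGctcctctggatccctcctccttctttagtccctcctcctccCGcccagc
Rb1, chr14:73725630-73725879, minus strand: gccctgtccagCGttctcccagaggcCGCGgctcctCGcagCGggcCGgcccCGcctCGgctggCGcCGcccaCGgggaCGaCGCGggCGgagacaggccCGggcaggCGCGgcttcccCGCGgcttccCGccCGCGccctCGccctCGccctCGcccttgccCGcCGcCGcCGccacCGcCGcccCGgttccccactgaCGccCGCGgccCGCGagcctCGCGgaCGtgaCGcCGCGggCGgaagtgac
Myc, chr15:61816696-61816945, plus strand: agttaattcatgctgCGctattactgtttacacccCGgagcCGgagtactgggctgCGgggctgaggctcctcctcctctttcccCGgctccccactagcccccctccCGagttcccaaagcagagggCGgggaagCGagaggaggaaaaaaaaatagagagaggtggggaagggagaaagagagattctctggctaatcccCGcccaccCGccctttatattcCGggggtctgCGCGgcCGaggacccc
Trp53, chr11:69393758-69393860, plus strand: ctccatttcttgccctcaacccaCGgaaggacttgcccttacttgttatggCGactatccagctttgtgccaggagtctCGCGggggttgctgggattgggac
Hras1, chr7:148379905-148380055, minus strand: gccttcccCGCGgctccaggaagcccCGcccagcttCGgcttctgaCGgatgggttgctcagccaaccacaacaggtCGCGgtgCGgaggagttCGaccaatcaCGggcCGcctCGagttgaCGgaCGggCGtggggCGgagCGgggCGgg

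The full 250 bases upstream of Rb1 held 45 CpGs, at the 99.5th percentile of all promoters, whose median was 9. Stk11 held 26, Hras1 and Braf 24 each, Myc 14, Met 13, Egfr 11, Nras 10 and Trp53 9. Thus Trp53 and Nras lay near the middle of all promoters. The GC box GGGCGG, searched on both strands, was present in the 250 bases of 7 of 9 members, against 40.2% of all promoters and 64.6% of promoters rich in CpG. It was not found at Trp53 or Stk11. CCAAT was found at Hras1, Trp53 and Stk11, against 34.9% of all promoters (35.1% of promoters rich in CpG), TATAAA at Trp53 and Myc, against 12.4% (5.46% of promoters rich in CpG), and CACGTG at none, against 6.46% (8.84%). By the CpG content of the whole promoter, 8 members were high-CpG promoters (HCPs), as were 54.18% of all genes, and Trp53 was an intermediate-CpG promoter. The TSS of Wrap53 lay 104 bp upstream of that of Trp53, and the TSS of Lrrc56 lay 152 bp upstream of that of Hras1, both on the opposite strand. Peaks at these 2 promoters cannot be assigned to either gene of the pair, because the data carry no strand.

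The libraries held 5660458 to 9101721 peaks. Every peak was 147 bp wide, the length of DNA on a nucleosome, with no height, so the number of peaks in a region was the measure throughout. Peaks lay throughout the genome, from 2.13 per kb (LLC-R H3K4me3) to 3.43 per kb (LLC-R H3K27me3). LLC-NR H3K9ac held 3.22 per kb over the genome, with a median of 4.05 in gene bodies. A peak by itself therefore does not show that a mark was enriched, and the promoter states below only set peak numbers against library means. The number of peaks in LLC-R relative to LLC-NR was about equal for H3K4me3, with a log2 ratio of -0.005. It was lower for H3K9ac, with a log2 ratio of -0.12, and higher for H3K27me3 and H3K36me3, with log2 ratios of 0.33 and 0.44. At promoters, peak numbers were therefore read as they stand and, for the comparison of lines, also after scaling on the peaks of each library.

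For the active mark H3K4me3, the members held 4 to 8 peaks per promoter, and the median of all promoters was 5 in each line. A promoter here is the 1 kb before the TSS together with the 0.5 kb after it. Among the Ras pathway members, Hras1 held 7 peaks in LLC-NR versus 6 in LLC-R, Nras 5 and 4, and Braf 7 and 6. The receptor genes held 7 and 4 peaks (Egfr) and 6 and 6 (Met). Myc held 7 in each line. Of the tumor suppressors, Trp53 held 6 and 6, Stk11 7 and 7, and Rb1 8 and 8. In LLC-NR, 9 of 9 members were at or above the mean of all promoters, 4.91 peaks, as were 63.8% of all promoters. In LLC-R, 7 of 9 members were at or above the mean of 4.603 peaks, against 58.8% of all promoters, and the others were Nras and Egfr. Most HCPs reach these means, 89.4% in LLC-NR versus 83.7% in LLC-R, so the count of members lies near that of promoters of their own kind. Rb1 was the highest member in each line, at the 97.1st percentile in LLC-NR versus the 98.9th in LLC-R. Nras was the lowest in LLC-NR, at the 44.6th percentile.

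**Figure D1:**
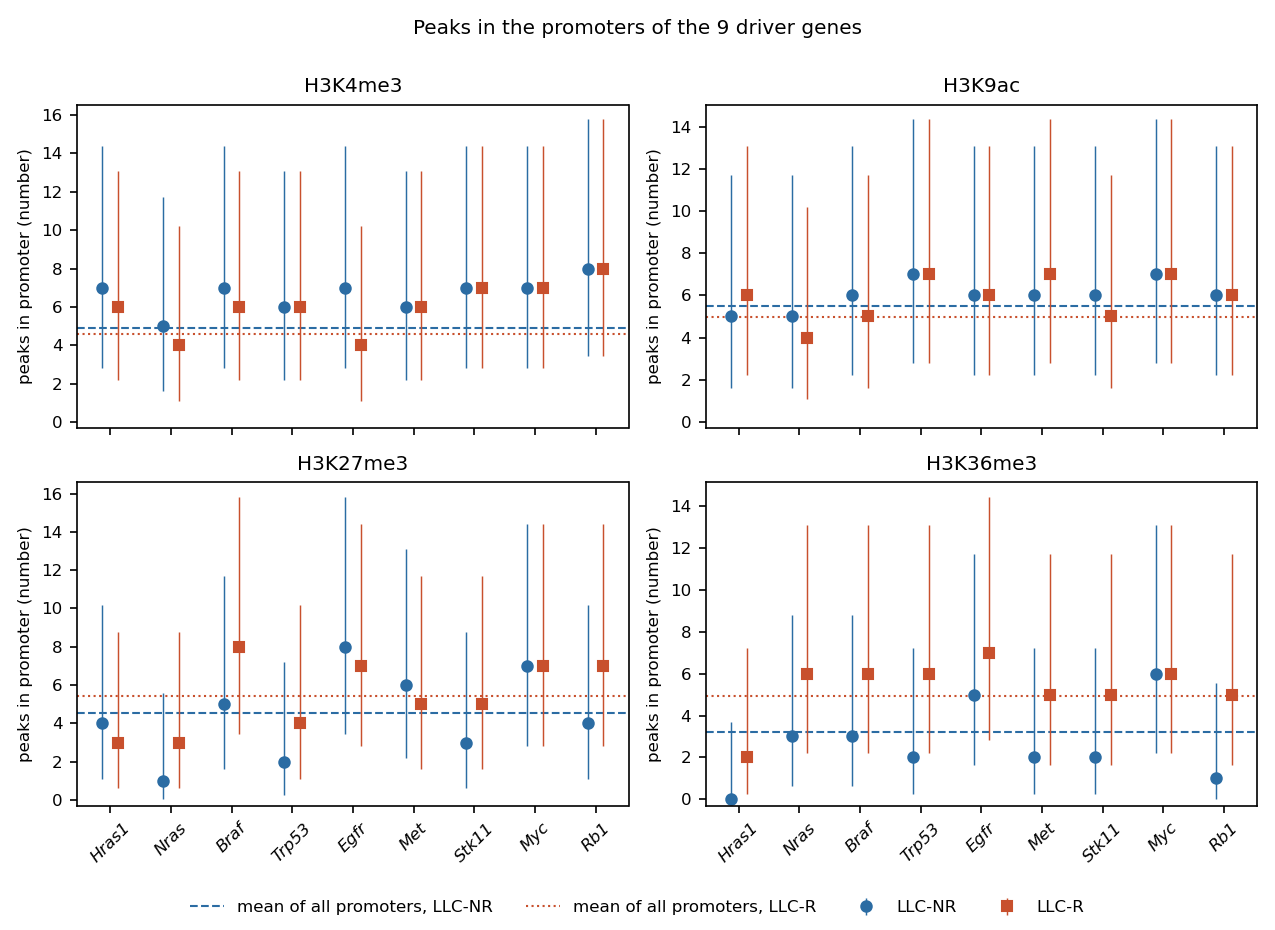
Number of peaks in the promoter of each of the 9 genes, with 1 panel per mark. Circles are the LLC-NR library and squares the LLC-R library, error bars are exact Poisson 95% intervals that cover counting error only, and lines are the means of all promoters. H3K4me3 numbers lie between 4 and 8, and those of H3K36me3 are mostly higher in LLC-R, as is its mean.

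H3K9ac, an acetyl mark of active promoters, varied little among the members. Hras1 held 5 peaks in LLC-NR versus 6 in LLC-R, Nras 5 and 4, Braf 6 and 5, Egfr 6 and 6, and Met 6 and 7. Myc and Trp53 held 7 in each line, Stk11 6 and 5, and Rb1 6 and 6. In LLC-NR, 7 of 9 members reached the mean of 5.5 peaks, against 62.2% of all promoters, and in LLC-R 8 of 9 reached the mean of 4.953, against 70.2%. Nras was below the mean of each line, and Hras1 only below that of LLC-NR.

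H3K27me3, the Polycomb mark, set the members apart from each other more than the active marks did. In LLC-NR, Egfr held 8 peaks, Myc 7, Met 6, Braf 5, Hras1 and Rb1 4 each, Stk11 3, Trp53 2 and Nras 1. Egfr was at the 98.9th percentile of all promoters and Nras at the 5.99th. In LLC-R, Braf held 8, Egfr, Myc and Rb1 7 each, Met and Stk11 5 each, Trp53 4, and Hras1 and Nras 3 each. In each line 4 of 9 members reached the mean of all promoters, against 56.6% in LLC-NR versus 58.6% in LLC-R. These were Egfr, Myc, Braf and Met in LLC-NR, and Rb1 took the place of Met in LLC-R. The receptor gene Egfr and the oncogenes Myc and Braf were thus above the mean in both tumors, and Hras1, Nras, Trp53 and Stk11 below it in both.

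H3K36me3 was sparse at most of the promoters in LLC-NR. Hras1 held 0 peaks there, with an exact Poisson 95% upper limit of 3.69, Rb1 held 1, Trp53, Met and Stk11 2 each, and Nras and Braf 3 each. Egfr held 5 and Myc 6, and only these 2 reached the mean of 3.191 peaks, against 43.3% of all promoters. In LLC-R, Hras1 held 2, Met, Stk11 and Rb1 5 each, Nras, Braf, Trp53 and Myc 6 each, and Egfr 7. There 8 of 9 reached the mean of 4.953, against 69.5% of all promoters. As counted, 8 members held more peaks in LLC-R, as did 78.1% of all promoters, and Myc held equal numbers, as did 16.2%. At 5.74% of all promoters, and at 0 members, LLC-R held fewer.

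Promoters were sorted into states by the marks at or above the library mean: active with H3K4me3 or H3K9ac and no H3K27me3, bivalent with H3K27me3 as well, repressive with H3K27me3 alone, and none. In LLC-NR, 5 members were active, against 29.8% of all promoters, 4 were bivalent, against 48.4%, and 0 had none of these states, against 13.6%. In LLC-R, 4 were active, against 28.4%, 4 were bivalent, against 52.8%, and 1 had none of these states, against 13.0%. The repressive state, held by 8.22% and 5.8% of all promoters, was found at no member in either line. Hras1, Trp53 and Stk11 were active and Braf, Egfr and Myc bivalent in both tumors. Egfr in LLC-R was bivalent through H3K9ac alone, since its H3K4me3 was below the mean. Some of these states moved with the region. With the promoter of 0.5 kb on each side, Egfr was repressive in LLC-R, Braf active in LLC-NR and Stk11 bivalent in LLC-R. With any overlap in place of the midpoint, Hras1 was bivalent in LLC-NR. Rb1 was active in LLC-NR and bivalent in LLC-R, Met bivalent in LLC-NR and active in LLC-R, and Nras active in LLC-NR and none in LLC-R. The state was the same in both lines at 6 of 9 members and at 62.0% of all promoters. Each of the 3 differences in state rests on a difference of 1 to 3 peaks in a mark, which is within Poisson counting error.

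Between the lines, Egfr had the largest difference in H3K4me3 among the members. It held 7 peaks in LLC-NR versus 4 in LLC-R, a log2 ratio of -0.73 with a counting error of 0.86, after scaling on the peaks of each library. A loss of 3 or more peaks was seen at 5.26% of all promoters. Egfr was the only member past a limit of 0.4 on the log2 scale with fewer peaks in LLC-R, against 19.2% of all promoters. No member was past it with more, against 11.6%. The difference was within this limit when the promoter was the 0.5 kb on each side of the TSS, with a log2 ratio of -0.36, or the 2 kb on each side, with -0.396. Hras1, Nras and Braf each had 1 peak fewer in LLC-R. As counted, 4 members thus had fewer H3K4me3 peaks in LLC-R, against 43.6% of all promoters, 5 had equal numbers, against 30.9%, and 0 had more, against 25.6%. H3K9ac at Egfr was 6 peaks in each line, and no member passed the limit in H3K9ac, against 14.2% of promoters with fewer and 9.44% with more. As counted, H3K9ac had fewer peaks in LLC-R at 3 members, against 50.6% of all promoters, equal numbers at 4, against 30.3%, and more at 2, against 19.1%. Markers of other cells held fewer H3K4me3 peaks in LLC-R in some lists, and over all promoters the mean difference was -0.308 peaks per promoter. The 5 leukocyte promoters of Ptprc, Itgam, Cd68, Cd3e and Csf1r held 24 H3K4me3 peaks in all in LLC-NR (2 to 7 each) and 19 in LLC-R (1 to 5 each), and none was at 0. Of these 5, Ptprc and Cd3e were past the limit, Cd3e with only 2 and 1 peaks, and Cd68 and Csf1r held equal numbers. Endothelial markers held 23 and 20 peaks in all, lung epithelium markers 33 and 30, fibroblast markers 26 in each line and epithelial markers 22 in each. Of the endothelial markers, Cdh5 and Kdr were past the limit with fewer peaks and Tek with more. The lung epithelium and epithelial lists each had 1 marker past it with fewer and 1 with more, and the fibroblast list had 0. Their part in the difference at Egfr was not tested. In bulk tumor, fewer cells that carry a mark and fewer marked nucleosomes per cell cannot be told apart.

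For H3K27me3, Hras1, Egfr and Met were past the limit with fewer peaks in LLC-R, against 15.0% of all promoters, and Nras, Trp53 and Rb1 with more, against 15.2%. As counted, 3 members had fewer H3K27me3 peaks, 1 had equal numbers, against 26.6%, and 5 had more, against 58.4%. The calls of Hras1, Egfr and Met each rest on 1 peak fewer where the library as a whole held more (as counted, 15.0% of all promoters had fewer). For H3K36me3, 7 members were past the limit with more peaks, against 34.7%, and Myc with fewer, against 21.9%. Myc held 6 peaks in each line. Hras1 is among the 7, with 0 peaks in LLC-NR versus 2 in LLC-R, both too few for a ratio. Nras and Trp53 changed sign with the promoter of 2 kb on each side. Scaling on uniquely mapped reads moves all promoters by the same amount, and 65.3% of them were then past the limit with fewer H3K36me3 peaks.

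At Egfr, the H3K4me3 nucleosomes of the lines lay farther apart than those of the other marks. Its H3K4me3 peaks in LLC-NR had their midpoints at -858, -680, -521, -333, -177, 134 and 351 bp from the TSS, and those in LLC-R at -617, -249, 63 and 354 bp. The median distance from an LLC-NR midpoint to the nearest one in LLC-R was 72 bp, at the 66.0th percentile of all promoters, whose median was 48 bp. A line with fewer peaks gives longer distances by itself, and LLC-R held 4 peaks to the 7 of LLC-NR. This distance was 3 bp for H3K9ac, 2 bp for H3K36me3 and 11.5 bp for H3K27me3, against 41.5, 48 and 43 bp over all promoters. The H3K9ac midpoints of Egfr were -952, -679, -527, -243, -51 and 146 bp in LLC-NR and -981, -681, -527, -239, -52 and 155 bp in LLC-R. The gap without H3K4me3 at the TSS of Egfr ran from -103 to 60 bp in LLC-NR, and in LLC-R a peak covered the TSS. For H3K4me3 the other 8 members had distances of 6 to 24.5 bp, below the medians of all promoters (48 bp from LLC-NR and 42 bp from LLC-R), and the lowest was that of Myc. Over HCPs alone these medians were 30 and 24 bp.

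**Figure D2:**
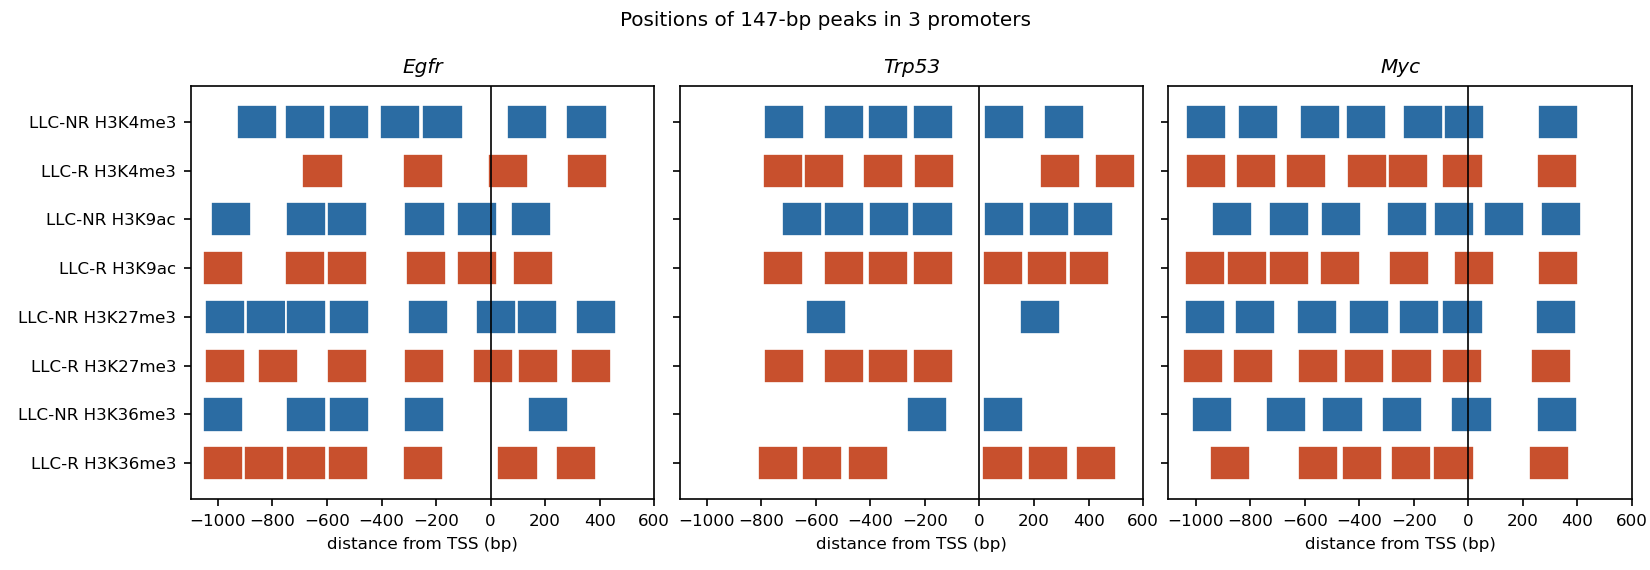
Positions of the peaks in the promoters of Egfr, Trp53 and Myc, with 1 row per library. Each block is 1 peak of 147 bp, the horizontal axis is the distance from the TSS in bp, and the vertical line is the TSS. At Egfr the rows of H3K9ac line up between the lines and those of H3K4me3 do not, and at Trp53 the rows of H3K27me3 and LLC-NR H3K36me3 hold few blocks.

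The Trp53 promoter held its active nucleosomes on both sides of a stretch without peaks. Its H3K9ac midpoints were -651, -497, -334, -173, 88, 254 and 417 bp in LLC-NR and -721, -496, -336, -172, 85, 247 and 400 bp in LLC-R. The TSS itself was in no peak of any of the 8 libraries. H3K27me3 was found at -565 and 222 bp in LLC-NR and at -717, -498, -336 and -170 bp in LLC-R, so that in LLC-R all its peaks lay upstream of the TSS, toward Wrap53. At Hras1, no H3K36me3 peak lay in the promoter in LLC-NR, and in LLC-R a stretch of 1039 bp around the TSS was free of it. At Nras, H3K27me3 left 1178 bp free in LLC-NR, with its only peak at 251 bp. The TSS lay outside every H3K4me3 peak at 5 members in LLC-NR, against 57.7% of all genes, and at 4 in LLC-R, against 60.8%. For H3K36me3 it did so at 8 members in LLC-NR, against 78.2%, and at 6 in LLC-R, against 63.4%. For H3K9ac it did so at 7 members in LLC-NR, against 59.3%, and at 6 in LLC-R, against 63.9%. For H3K27me3 it did so at 3 members in each line, against 59.5% in LLC-NR versus 52.1% in LLC-R.

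H3K4me3 and H3K27me3 nucleosomes coincided at Myc more than at any other member. Of its 7 H3K4me3 peaks, 7 had an H3K27me3 peak with a midpoint within 40 bp in LLC-NR versus 6 in LLC-R. Over all promoters this share was 42.1% in LLC-NR versus 47.9% in LLC-R. Egfr had 5 of 7 in LLC-NR and 2 of 4 in LLC-R, Braf 4 of 7 and 4 of 6, and Rb1 2 of 8 and 5 of 8. Trp53 had 0 of 6 in LLC-NR and 4 of 6 in LLC-R. Marks on the same position come from separate libraries, so it is not known whether they were on the same nucleosome. Myc lies in the block dense in peaks of all 4 marks described below, and dense peaks of any 2 marks lie close together. The part of this density in the numbers at Myc was not tested.

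Along the gene bodies, from 0.5 kb downstream of the TSS to the gene end, the members were rich in H3K36me3, the mark of transcribed bodies. In LLC-NR, Nras held 4.25 peaks per kb, Braf 4.12, Trp53 4.09, Met 4.02, Myc 4.01, Hras1 3.86, Stk11 3.82, Egfr 3.51 and Rb1 3.4. All 9 were above the median of 3.13, as were 50.0% of all 19565 bodies of at least 1 kb. In LLC-R, Hras1 held 4.77 peaks per kb, Nras and Myc 4.46 each, Braf 4.3, Met 4.29, Trp53 and Egfr 4.18 each, Stk11 4.1 and Rb1 3.88. There 8 of 9 were above the median of 3.99, as were 50.0% of all bodies, and Rb1 was at the 40.9th percentile. This was not particular to H3K36me3, since 8 of 9 were also above the medians of H3K4me3 and H3K9ac in each line. The order of neighbours in these lists is not resolved. For Hras1, with 17 peaks in its body of 4.401 kb in LLC-NR, the Poisson 95% interval was 2.25 to 6.18 peaks per kb, wider than the whole range among members.

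**Figure D3:**
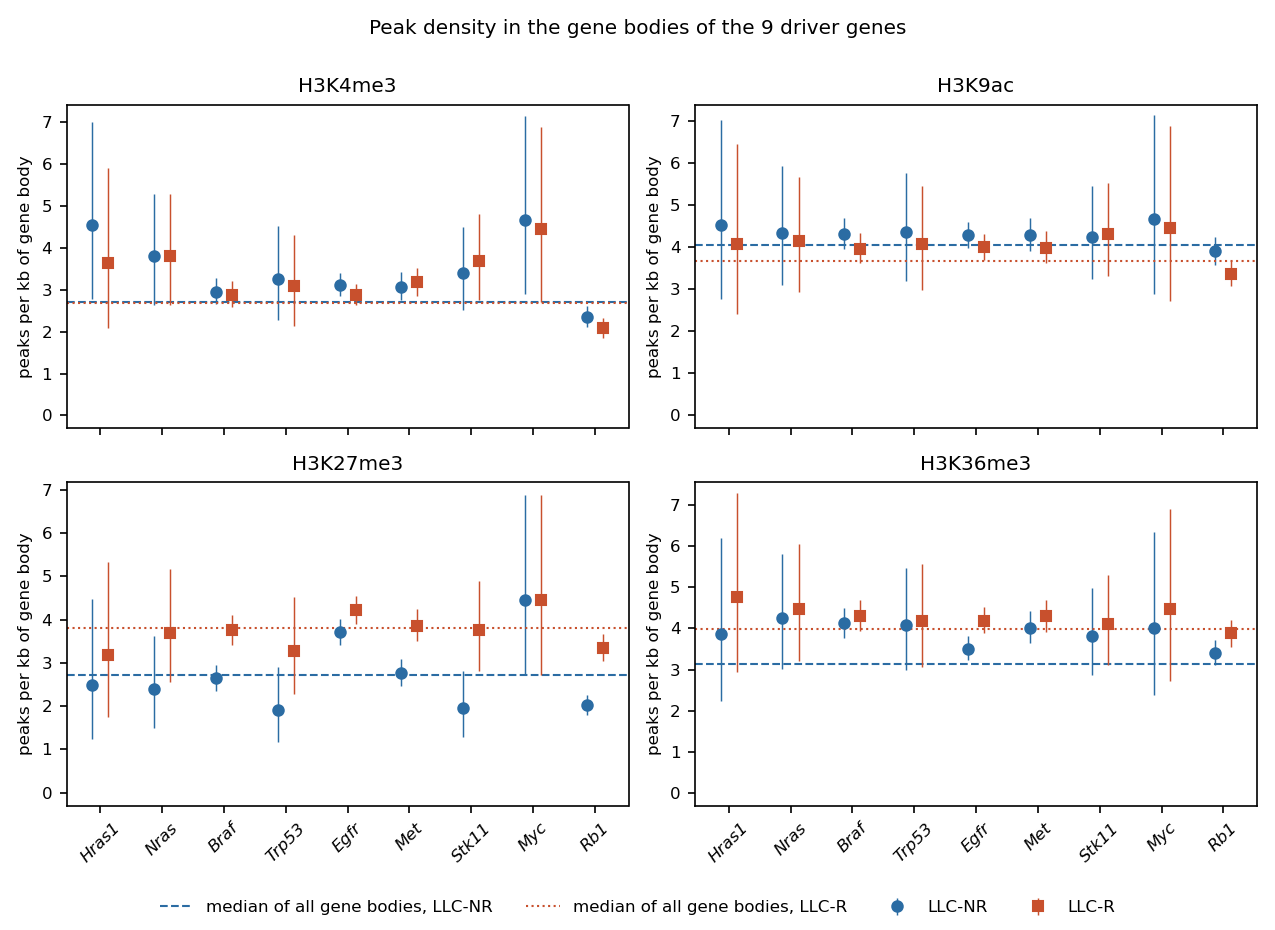
Peaks per kb of gene body for the 9 genes, with 1 panel per mark. Circles are the LLC-NR library and squares the LLC-R library, error bars are exact Poisson 95% intervals for counting error only, and lines are the medians of all gene bodies. Rb1 is the only member below the H3K4me3 medians, and Myc lies highest for H3K27me3 in both lines.

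The other marks in the gene bodies separated Myc and Rb1 from the rest. For H3K4me3, Myc held 4.68 peaks per kb in LLC-NR versus 4.46 in LLC-R, at the 99.4th and 99.3rd percentiles. Rb1 held 2.35 and 2.08, at the 29.9th and 16.6th percentiles, and was the only member below the median in each line. For H3K9ac, Rb1 was again the only member below the median, with 3.91 and 3.36 peaks per kb. For H3K27me3, 3 of 9 members were above the median in each line, against 50.0% of all bodies, and these were Myc, Egfr and Met. Myc held 4.46 peaks per kb in each line, Egfr 3.71 and 4.22, and Met 2.77 and 3.86. Trp53 held 1.91 and 3.27, at the 16.2nd and 15.4th percentiles, and Rb1 held 2.03 and 3.35, at the 20.4th and 18.1st. Several bodies overlap other genes, Ndufb2 at the end of Braf, Dos at Stk11, Gm17664 in Egfr, and Lpar6 and Rcbtb2 at Rb1, and the peaks cannot be assigned to a strand.

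As counted, LLC-R had the higher H3K36me3 density in all 9 bodies. Relative to the peaks of the library, most of the 9 were lower. After scaling on the peaks of each library, 7 of 9 were past a limit of 0.2 on the log2 scale with a lower density in LLC-R, against 41.9% of all bodies, and 0 with a higher density, against 15.9%. The log2 ratio was -0.38 ± 0.09 (counting SE) for Braf, -0.35 ± 0.10 for Met and -0.26 ± 0.09 for Rb1, each more than 2 times its counting error. It was -0.41 ± 0.30 for Trp53, -0.37 ± 0.32 for Nras, -0.34 ± 0.27 for Stk11 and -0.30 ± 0.47 for Myc, each less than 2 times its counting error. Egfr, at -0.19, and Hras1, at -0.15, were within the limit. The median over members was -0.34 and that over all bodies -0.14. Relative to the 2 Mb around each gene, 6 of 9 were past the limit, against 35.2% of all bodies. The direction rests on the scaling, which subtracts 0.44 from each log2 ratio, since the counts themselves were higher in LLC-R. Peaks of a library do not overlap, so a body already dense in LLC-NR can gain few more. All 9 bodies were above the LLC-NR median of 3.13 peaks per kb, with 4.12 for Braf, 4.02 for Met and 3.4 for Rb1. The counting error does not cover this bound, and how far the bound sets these calls was not tested.

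H3K27me3 in gene bodies was past the limit with a higher density in LLC-R at 4 of 9 members, against 39.2% of all bodies, and with a lower density at Myc alone, against 21.4%. The log2 ratio was 0.61 ± 0.34 for Stk11, 0.43 ± 0.40 for Trp53, 0.39 ± 0.11 for Rb1 and 0.29 ± 0.40 for Nras. Only that of Rb1 was more than 2 times its counting error. Myc held 20 peaks in each line, so its log2 ratio of -0.33 comes from the scaling alone. In LLC-NR, Trp53, Stk11, Rb1 and Nras held 1.91, 1.95, 2.03 and 2.39 peaks per kb, below the median of 2.71. Hras1 (2.5) and Braf (2.65) were also below it and within the limit. The part of starting density in these calls was not tested. When the lines were scaled on uniquely mapped reads, which moves all bodies by the same amount, 90.3% of all bodies were past the limit with a lower density. For H3K4me3, only Hras1 was past the limit, with 20 peaks in LLC-NR versus 16 in LLC-R and a log2 ratio of -0.31 ± 0.48, against 17.0% of all bodies with a lower density, and 0 members had a higher density, against 15.5%. No member was past it in H3K9ac, against 7.14% lower and 5.6% higher.

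Myc was set in a block of high density that reached far beyond the gene. In bins of 100 kb, the bin that holds the Myc TSS held 4.46 H3K4me3 peaks per kb in LLC-NR versus 4.37 in LLC-R, against medians of 2.26 and 2.27 over all bins. Its H3K27me3 density was 4.35 and 4.53 peaks per kb, against medians of 2.91 and 3.72. Of 25399 bins with a peak in every library, 4 (0.0157%) were in the top 2.5% of all 8 libraries, and 3 of these were the adjacent bins chr15:61800001-62100000 around Myc. When bins in the top 2.5% of both H3K4me3 libraries were joined, a rule set after the values were seen, the block around Myc spanned 11 bins, chr15:61400001-62500000. It began 416.9 kb before the TSS and ended 683.1 kb after it. It was the longest of 224 such runs, and Myc was the only protein-coding gene with its TSS in it.

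Inside the block the marks not used to draw it were dense as well. H3K9ac averaged 4.22 peaks per kb in LLC-NR versus 4.2 in LLC-R, 1.22 and 1.35 times the 0.5 Mb on each side. H3K27me3 averaged 4.18 and 4.23, 1.22 and 1.15 times the sides, and H3K36me3 4.14 and 4.24, 1.62 and 1.27 times the sides. H3K4me3, which drew the block, averaged 4.16 and 4.1, 1.79 and 2.02 times the sides. The 4 marks thus reached nearly the same density, between 4.1 and 4.24 peaks per kb, in all 8 libraries. Stk11 was the only other member in such a run, of 6 bins with the TSSs of 40 protein-coding genes. There H3K27me3 was not dense, with 2.47 peaks per kb in LLC-NR, below its median of 2.91, and 3.69 in LLC-R, below 3.72. The amount of DNA at these loci was not measured in the data used here, so a change in DNA copy number and a change in the marks cannot be told apart at Myc. The bivalent state of Myc, its H3K27me3 levels and its shared H3K4me3 and H3K27me3 positions come from this block too. The H3K27me3 and H3K36me3 calls with fewer peaks or lower density in LLC-R at Myc lie in this block. In the 2 Mb around Myc the log2 ratio of LLC-R to LLC-NR, scaled on the peaks of each library, was -0.28 for H3K27me3, at the 0.15th percentile of all genes. For H3K36me3 it was -0.28, at the 0.418th. By this scaling, equal counts in both lines read as negative. At the Myc promoter they gave -0.33 for H3K27me3, with 7 peaks in each line, and -0.44 for H3K36me3, with 6. A region already full of peaks in LLC-NR cannot gain many, and the part of this in the percentiles was not tested.

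**Figure D4:**
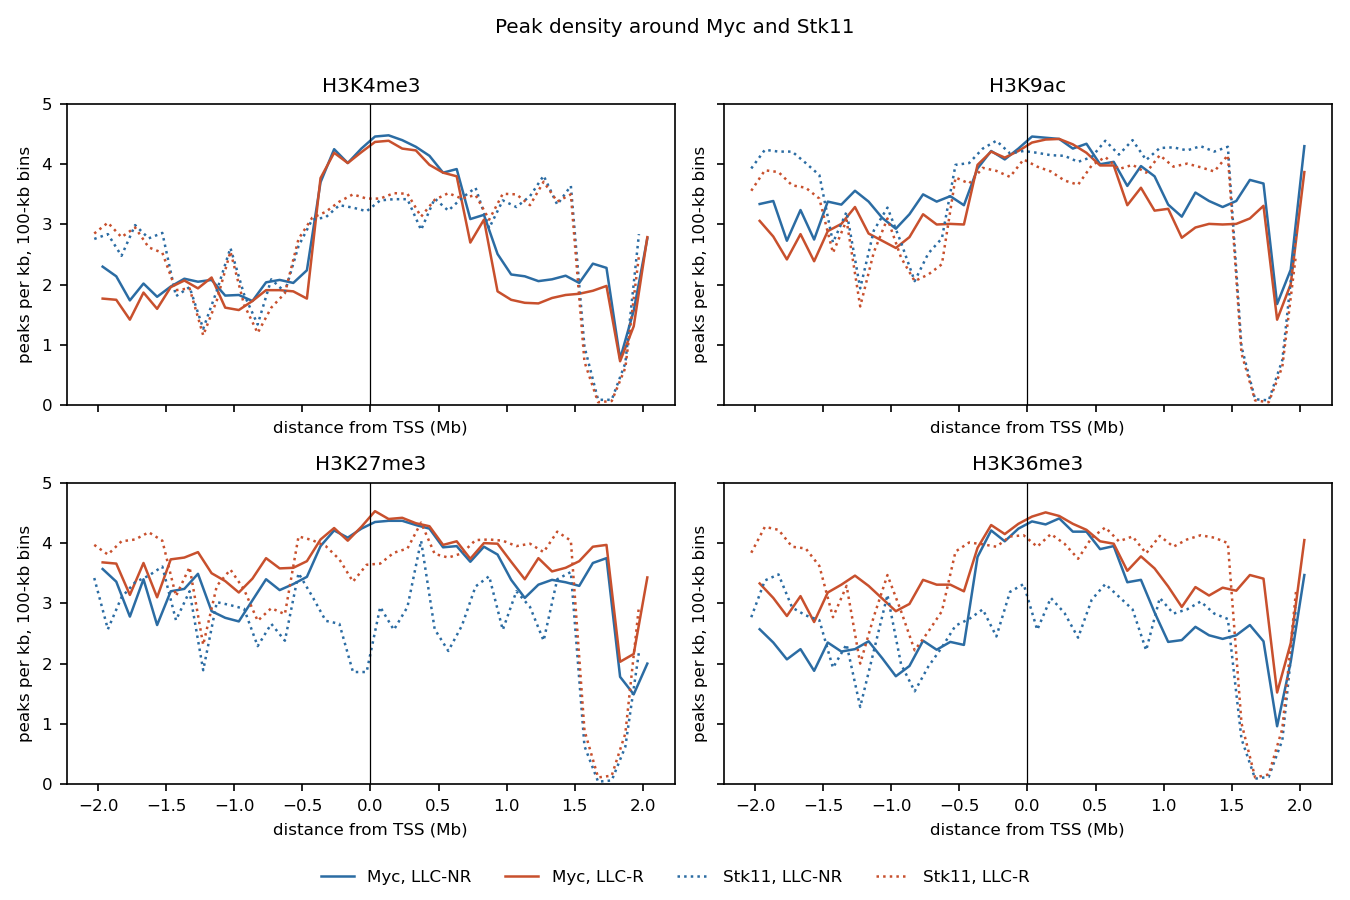
Peaks per kb in bins of 100 kb against the distance from the TSS in Mb, for Myc (solid) and Stk11 (dotted) in LLC-NR and LLC-R, with 1 panel per mark. All 4 marks reach more than 4 peaks per kb in the block around Myc in both lines, while H3K27me3 averages 2.47 (LLC-NR) and 3.69 (LLC-R) peaks per kb in the run around Stk11.

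Rb1 held a stretch without any peak. No library had a peak in chr14:73587187-73594413, 7227 bp from 131.2 to 138.4 kb downstream of the TSS, which lies in an intron. The next longest stretch without a peak in any library was 551 bp, at Met. At the density of the rest of the Rb1 body, this stretch would have held 15.4 to 29.8 peaks per library. A stretch this long was found in 420 of all genes (1.88%), and in 119 of 2864 genes (4.16%) between 0.5 and 2 times the length of Rb1. Of 36 words of 50 bases taken every 200 bases along the stretch, 35 (97.2%) had more than 1 exact copy in the genome, with a median of 55 copies. In the rest of the gene 16 of 675 such words (2.37%) had more than 1 copy. The authors kept only reads that map to 1 place, and the part of that step in the missing peaks was not tested. Without the stretch, the H3K36me3 density of Rb1 was 3.59 peaks per kb in LLC-NR versus 4.08 in LLC-R, at the 68.1st and 58.9th percentiles, above the median in both lines. The H3K4me3 density was 2.48 and 2.19, still at the 36.7th and 20.7th percentiles. Only Rb1 had such a stretch taken out, and all other bodies kept their full length. These percentiles are therefore not on a par with those of the whole body of Rb1.

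Within Rb1, H3K4me3 was uneven. In bins of 5 kb, the first bin after the TSS held 4.2 H3K4me3 peaks per kb in LLC-NR versus 3.4 in LLC-R, against medians of 2.6 and 2.0 along the gene. The bins centred 82.5 and 87.5 kb downstream held 3.6 and 3.8 peaks per kb in LLC-NR, with 3.0 and 3.8 in LLC-R, which gave them ranks 3 and 2 of 29 bins in LLC-NR, with ranks 3 and 1 in LLC-R. In LLC-R the bins centred 102.5 and 112.5 kb downstream also held 3.0 and share rank 3. The gene Lpar6, a receptor for lysophosphatidic acid, lies on the opposite strand inside Rb1 with its TSS 87.9 kb from that of Rb1. Its promoter held 6 H3K4me3 peaks in LLC-NR versus 5 in LLC-R. These bins were singled out after their values were seen.

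**Figure D5:**
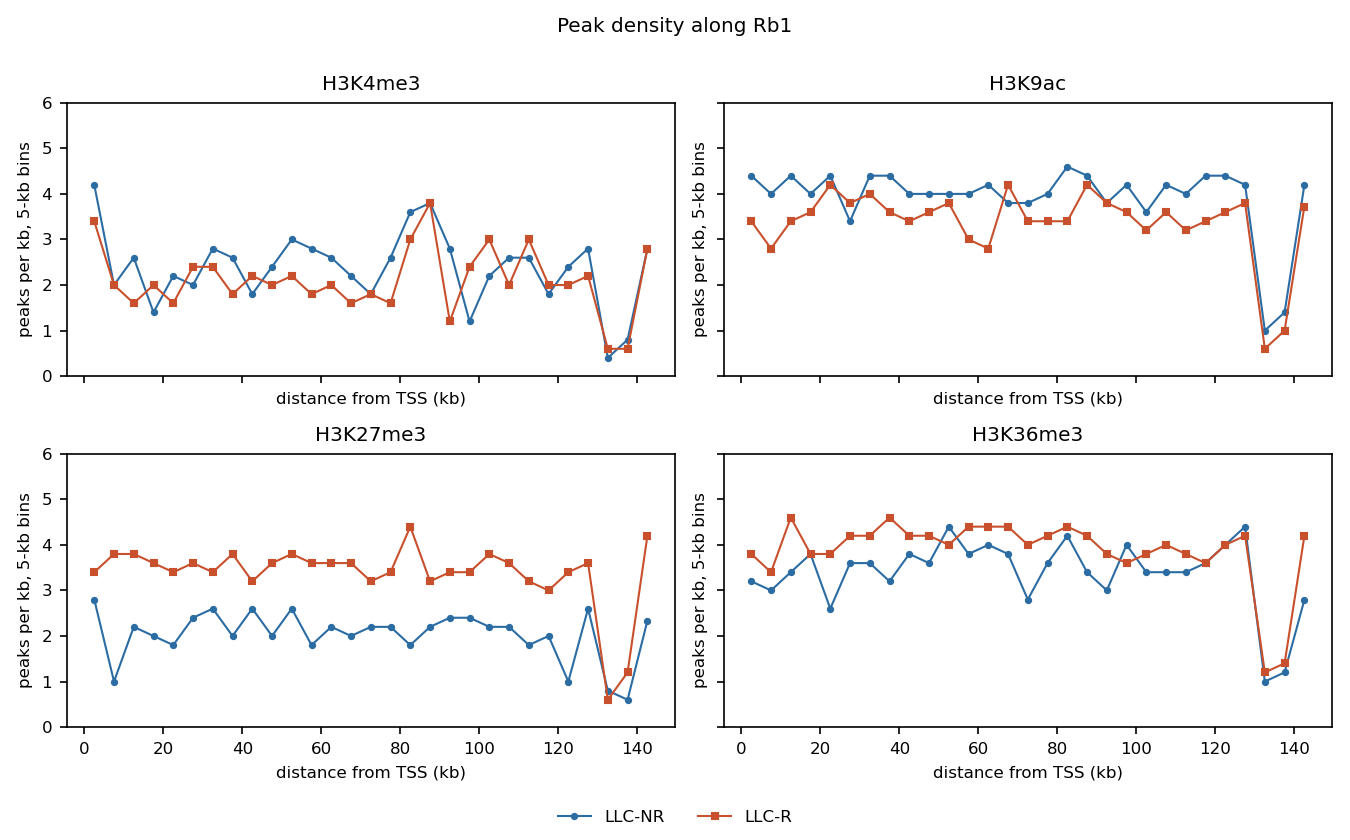
Peaks per kb in bins of 5 kb along Rb1 against the distance from its TSS in kb, for LLC-NR (circles) and LLC-R (squares), with 1 panel per mark. H3K4me3 is high again in the bins centred 82.5 and 87.5 kb from the TSS, and all marks drop between 131.2 and 138.4 kb in both lines.

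Partners of the members in their pathways had promoters of the same kind. Of 88 partners in 5 lists, 82 were HCPs. At or above the H3K4me3 mean were 82 in LLC-NR versus 76 in LLC-R, near the shares of all HCPs, 89.4% and 83.7%, with 63.8% and 58.8% over all promoters. The counts of each list stand beside the same shares. By the limit of 0.4, 11 of 88 had fewer H3K4me3 peaks in LLC-R, against 19.2% of all promoters, and 2 had more, against 11.6%. In the receptor and Ras-Raf-MAPK list, 26 of 29 were at or above the mean in LLC-NR versus 24 in LLC-R, with 4 past the limit with fewer peaks and 1 with more. The exchange factor Sos2 was highest, with 9 peaks in LLC-NR versus 8 in LLC-R, and the receptor Fgfr1 lowest, with 3 in each. The receptor Ret held 5 and 1, the kinase Araf 7 and 4, a log2 ratio of -0.73, and the receptor Alk 5 and 7, a log2 ratio of 0.45.

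Among the partners of p53, 14 of 16 were at or above the H3K4me3 mean in LLC-NR versus 13 in LLC-R. The apoptosis gene Bbc3 was highest, with 7 peaks in each line, and Perp lowest, with 4 in each. Bax, which permeabilizes mitochondria, held 6 and 3 peaks, and the cell cycle inhibitor Cdkn1a held 4 and 6, a log2 ratio of 0.54. In the Rb and cell cycle list, 17 of 17 were at or above the mean in LLC-NR versus 15 in LLC-R. The Rb relative Rbl1 was highest, with 7 in each line, and E2f3 and the deacetylase Hdac1 were lowest, with 5 and 4 each. Cyclin D3 (Ccnd3) was the 1 partner past the limit, with 8 and 5 peaks and a log2 ratio of -0.62.

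Among the partners of Myc, 9 of 10 were at or above the mean in each line. Fbxw7, which targets Myc for destruction, was highest with 7 and 8 peaks, the antagonist Mxi1 was lowest with 4 in each line, and the relative Mycn held 7 and 5, a log2 ratio of -0.44. Among the partners of LKB1, 16 of 16 were at or above the mean in LLC-NR versus 15 in LLC-R. The kinase Nuak1 was highest with 8 in each line, and Cab39, a partner in the LKB1 complex, was lowest with 5 and 3. The kinase Sik1 held 8 and 5, a log2 ratio of -0.62, and both Prkaa1, a catalytic subunit of AMPK, and Rheb held 7 and 5, a log2 ratio of -0.44. In the gene bodies, H3K36me3 was past the limit of 0.2 with a lower density in LLC-R at 20 of 29, 10 of 16, 14 of 17, 7 of 10 and 13 of 16 partners in these lists, in the order given. All these shares stand beside 41.9% of all bodies, and no list was tested. The bound on the peaks that a dense body can hold applies to these counts too, and its part was not tested.

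The label gives lung as the tissue, the origin of the carcinoma. Of 6 markers of lung epithelium, Sftpa1 held 2 H3K4me3 peaks in LLC-NR versus 3 in LLC-R, and the others held 5 to 9 and 4 to 7. Of these 6, 5 reached the mean of all promoters in LLC-NR versus 4 in LLC-R, against 63.8% and 58.8% of all promoters. For H3K27me3 5 of 6 did so in each line, against 56.6% and 58.6%. Leukocyte, endothelial and fibroblast markers also held peaks. The samples also hold host cells, and how well peak numbers of this kind separate cell types was not tested.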

How the data were processed

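Histone marks were measured by ChIP-seq in LLC-NR and LLC-R isografts, with 1 library per line and mark, grouped by the labels. The deposited files list chromosome, start and end of peaks as other values in base pairs, with no count, signal or score. Per the methods, the authors aligned reads to mm9 with Bowtie 0.12.7, allowed up to 2 mismatches, discarded reads with more than 1 match and ran GeneTrack on single libraries to call peaks. Its settings are not given in the sources used here. Regions of repeated sequence can therefore lack peaks, and a number of peaks saturates where 147-bp peaks fill a region.

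Genes were taken from GENCODE vM1 and sequence from NCBIM37, the same assembly. The TSS shared by most protein-coding transcripts was used. A peak counted where its midpoint lay in the promoter or in the body, the latter for bodies of at least 1 kb. Percentiles are mid-ranks over all protein-coding genes of the library. Ratios had 0.5 peaks added and were called past 0.4 (promoter) or 0.2 (body) on the log2 scale. Intervals and errors treat peaks as Poisson counts and cover counting error only. Peaks of a library do not overlap, so their number in a region is bounded, and these intervals and errors can be too wide. Named were all members, the partner with the highest and lowest mean H3K4me3 percentile of each list, up to 3 partners per list past the promoter limit, and the gene nearest to each member over 16 percentiles. Ties are named together. The members and lists were chosen with earlier results of these data known. Alternatives covered the region, TSS, overlap, CpG class, scaling, pseudocount, state limit and gene body. Counting was tested on simulated data. A leukocyte marker and an upstream sequence are not reported here. The tools were Matplotlib 3.10.9 for figures and pandas 2.3.3, SciPy 1.17.1 and NumPy 2.4.6 for counting, under Python 3.11.15.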

Additional observations from a re-analysis of the deposited data

How the results depend on the processing

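Of 201 comparisons of a count of members with its value under an alternative, 162 stayed within 1.5 times and 39 did not. Shares of all promoters or bodies are given in parentheses, and where they move with the counts the move is not particular to the members. The cause was not tested. With the promoter of 0.5 kb on each side, members at or above the mean went from 8 to 4 for LLC-R H3K9ac (70.2 to 46.6%), 4 to 2 for LLC-NR H3K27me3 (56.6 to 41.2%), 2 to 4 for LLC-NR H3K36me3 (43.3 to 63.1%) and 8 to 3 for LLC-R H3K36me3 (69.5 to 43.8%), and bivalent members in LLC-NR from 4 to 2. Members with fewer peaks in LLC-R went from 1 to 0 for H3K4me3 (19.2 to 18.5%), 3 to 1 for H3K27me3 (15.0 to 16.8%) and 1 to 2 for H3K36me3 (21.9 to 30.1%), and those with more from 0 to 1 for H3K9ac (9.44 to 19.1%) and 7 to 4 for H3K36me3 (34.7 to 38.5%). With 2 kb on each side, members at or above the LLC-NR H3K36me3 mean went from 2 to 6 (43.3 to 58.5%), those with fewer peaks from 1 to 0 for H3K4me3 (19.2 to 11.1%) and 3 to 0 for H3K27me3 (15.0 to 8.7%), and those with more from 3 to 1 for H3K27me3 (15.2 to 13.9%) and 7 to 1 for H3K36me3 (34.7 to 18.6%). With any overlap, the LLC-R H3K36me3 count went from 8 to 5 (69.5 to 57.1%) and active members in LLC-NR from 5 to 3. Within CpG classes, the LLC-NR H3K36me3 count went from 2 to 4 (62.9% of HCPs). A limit of 2 times the mean for active marks lies above the 9 peaks of the fullest promoter, so active and bivalent members were 0 in each line by construction, and this alternative says nothing about them.

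Scaling on uniquely mapped reads moves all genes by 1 amount per mark, with log2 offsets (LLC-R over LLC-NR, subtracted) of -0.27 for H3K4me3, -0.80 for H3K9ac, 1.1 for H3K27me3 and 1.21 for H3K36me3, so its counts and signs follow from these offsets. Promoters with more peaks then numbered 9 for H3K9ac (78.8%), 0 for H3K27me3 (2.84%) and 2 for H3K36me3 (5.8%), and those with fewer 6 for H3K27me3 (84.8%) and 2 for H3K36me3 (65.3%). Gene bodies lower in LLC-R numbered 0 for H3K4me3 (4.03%), 8 for H3K27me3 (90.3%) and 9 for H3K36me3 (95.5%), and those higher 5 for H3K4me3 (63.9%), 9 for H3K9ac (98.1%) and 0 for H3K27me3 (2.15%). Without scaling, promoters with fewer peaks numbered 0 for H3K27me3 (3.34%) and 0 for H3K36me3 (1.7%), and those with more 5 for H3K27me3 (31.9%). Scaled on the 2 Mb around the gene, lower bodies numbered 2 for H3K4me3 (15.4%) and 0 for H3K27me3 (16.3%), and in the first 10 kb 4 for H3K4me3 (26.1%) and 1 for H3K9ac (10.3%).

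Of the log2 ratios of single members past the limit, 10 changed sign on reads, as the offsets alone require. At promoters these were Trp53 (-0.25) and Rb1 (-0.36) for H3K27me3 and Nras and Braf (-0.32 each), Met and Stk11 (-0.077 each) for H3K36me3, and in bodies Nras (-0.48), Trp53 (-0.34), Stk11 (-0.17) and Rb1 (-0.38) for H3K27me3. The other 4 were Met for H3K27me3 (0.033) and Hras1 for H3K36me3 (-0.44) with 0.5 kb on each side, and Nras (-0.27) and Trp53 (-0.043) for H3K36me3 with 2 kb. The most upstream TSS was the TSS used for all members. No paired analysis was possible because each line and mark has 1 library. Promoter counts of at most 8 peaks limit what a difference between lines can show.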

Other observations

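For each member, the protein-coding gene nearest over 16 percentiles (promoter and gene body in 8 libraries) was named, with the Euclidean distance in percentile points. The nearest gene to Myc was Gm7120, at 32.7 points, against a median of 182 over all 19564 genes searched. Atat1 was nearest to Nras, at 35.4 against a median of 170, and Lrp1, an endocytic receptor, to Met, at 36.1 against 135. Csnk1g2, a casein kinase, was nearest to Stk11, at 40.1 against 151, Fem1b to Braf, at 41.6 against 135, and Zfp335 to Trp53, at 43.3 against 163. C030046E11Rik was nearest to Rb1, at 46.7 against 156, Creg2 to Egfr, at 49.2 against 148, and Phf5a, a splicing factor subunit, to Hras1, at 54.0 against 180. The nearest of many genes is close by construction.

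Each gene body was also split into 3 parts of equal length. In LLC-NR, Trp53 held 4.63 H3K4me3 peaks per kb in the part next to the TSS and 2.18 in the part farthest from it, Stk11 4.38 and 2.92, and Myc 5.35 and 3.35, against medians of 2.91 and 2.53 over all bodies of at least 3 kb. In the long genes the values were 2.88 and 2.98 for Braf, 3.08 and 3.17 for Egfr, 3.31 and 3.12 for Met, and 2.39 and 1.93 for Rb1, whose last part holds the stretch without peaks. In LLC-R, Trp53 held 3.27 in each of these parts, Stk11 4.59 and 2.71, and Myc 4.02 in each.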
